A study of Mus musculus with 12 samples.

Results

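The plasminogen activator system was followed in mouse bone marrow derived macrophages (BMDMs) through 3 genes, chosen by symbol: Plau, which encodes the urokinase-type plasminogen activator, Plaur, which encodes its receptor, and Serpinb2, which encodes plasminogen activator inhibitor type 2. The 3 genes were taken from a table of 54232 genes, and all 3 were among the 16281 genes tested. Their levels across the 6 groups differed in kind. Plau was highest in cells given neither tumor-conditioned medium (TCM) nor drug and lower in each of the other 5 groups. Serpinb2 was near its lowest in those cells and was highest in TCM of NBT3L cells. Plaur varied least and was lowest where TCM and the Syk inhibitor R788 were combined.

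Urokinase is a secreted serine protease that cuts the circulating zymogen plasminogen into plasmin, a protease that dissolves fibrin and degrades matrix. The urokinase receptor is anchored by a lipid to the outer face of the cell membrane and holds urokinase at the cell surface. SerpinB2 belongs to the ovalbumin family of serpins, inhibits urokinase in vitro and is kept largely inside the cell. Macrophages are a known source of all 3 proteins, and plasminogen itself is made mainly by the liver.

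The cells were BMDMs of wild-type C57BL/6 mice, from animals of 6 to 8 weeks by the methods of the study, grown with macrophage colony-stimulating factor. After 5 days of culture they were kept for 24 h in 1 of 6 conditions with 2 libraries each. The group labeled NS received neither TCM nor drug, and the group R788 received 500 nM of the drug alone. The groups NB9464 TCM and NBT3L TCM received medium of a mouse neuroblastoma line with amplified MYCN (NB9464) or of a line without the amplification (NBT3L). The groups NB9464 TCM + R788 and NBT3L TCM + R788 received the same media together with 500 nM R788. R788 (fostamatinib) is a prodrug of an inhibitor of the tyrosine kinase Syk, which also acts on other kinases. NB9464 cells had conditioned serum-free DMEM for 48 h, whereas the sources do not describe how NBT3L TCM was prepared, in which medium cells without TCM were kept or what R788 was dissolved in. Effects of TCM and of base medium or serum therefore cannot be told apart. Each TCM came from a single cell line, and the labels do not say whether the libraries of a group came from separate cultures or mice, so that p-values measure only the spread between these libraries.

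Total counts were between 44977847 and 56449685 per library. Library SJ8 of the R788 group had the highest total and the fewest genes with a count, 16149 against 17275 to 18343 in the other 11, and the R788 libraries differed from each other more (SD of the log2 difference 0.469) than those of the other groups (0.293 to 0.331). The 7 macrophage markers, among them Adgre1, Csf1r and Cd68, were present in every library, with a summed level of 71124 to 85655 TPM (transcript abundance per length, scaled to the same total in every library). Lyz2, at 63439 to 77172 TPM, made up most of that sum. Over the libraries, Adgre1 spanned 1394 to 5904 TPM and Csf1r 960 to 1877 TPM. The 8 neuroblastoma markers summed to at most 1.35 TPM, with Th and Chga at 0 counts in all 12 libraries.

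To place the genes, the sequence before the start of transcription is shown for the members with an entry among the RefSeq promoters (GRCm38.p6), Plaur and Serpinb2. Each stretch of 250 bases ends just before the start site and lies on the + strand, at chr7:24462233-24462482 for Plaur and at chr1:107511173-107511422 for Serpinb2. Capitals mark matches, on either strand, to 8 motifs searched: AP-1 (TGANTCA), CRE (TGACGTCA), NF-kB (GGGANTTTC), C/EBP (TTGCNNAA), ETS (AGGAAG), Sp1 (GGGCGG), HRE (ACGTG) and the TATA box (TATAAA). They are shown as a description. Both genes were lower with R788 in TCM, and so were Fosl1, which encodes an AP-1 subunit, and Egr1, both described further on. Fosl1 and Egr1 were also lower with R788 alone (log2 fold change -1.58 and -3.03). There Plaur differed by -0.21 and Serpinb2 was not called. A link between these changes and the letters was not tested. Other AP-1 genes, Fos, Jun, Junb and Jund, were not called with R788 in NBT3L TCM. With R788 alone, Fos, Jun and Junb were called lower (log2 fold change -1.23, -0.23 and -0.28) and Jund was not called. No Egr motif was among the 8 searched.
Plaur: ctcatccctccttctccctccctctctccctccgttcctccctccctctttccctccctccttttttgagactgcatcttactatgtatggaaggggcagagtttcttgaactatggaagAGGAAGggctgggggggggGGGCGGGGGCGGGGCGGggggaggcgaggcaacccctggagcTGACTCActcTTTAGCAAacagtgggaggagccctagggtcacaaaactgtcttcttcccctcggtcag
Serpinb2: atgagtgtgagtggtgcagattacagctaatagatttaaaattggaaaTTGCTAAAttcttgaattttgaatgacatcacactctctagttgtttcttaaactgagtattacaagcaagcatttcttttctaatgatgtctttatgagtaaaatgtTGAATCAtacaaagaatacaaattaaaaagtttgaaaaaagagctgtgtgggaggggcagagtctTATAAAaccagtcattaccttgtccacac
Plaur held an ETS match at 130 to 125 bases before the start, 3 Sp1 matches between 111 and 95, of which the last 2 overlap by 1 base, an AP-1 match (TGACTCA) at 69 to 63 and a C/EBP match at 59 to 52. Serpinb2 held a C/EBP match at 202 to 195, an AP-1 match (TGAATCA) at 94 to 88 and a TATA match at 29 to 24. RefSeq gives a further Serpinb2 start at 107511510, and the window before it holds the same AP-1 and TATA letters. Of 32851 mouse promoter windows of this length, 6.75% held the AP-1 letters, 9.56% the C/EBP letters, 29.5% ETS, 32.7% Sp1 and 12.4% TATA. A match describes letters and is not a measured binding site.

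Plau (ENSMUSG00000021822) lies on chromosome 14 at 20836660 to 20843385 on the + strand, and no exon of it overlaps another gene. The libraries of NS had 11750 and 10982 normalized counts of Plau, those of NB9464 TCM 1745 and 1755, and those of NBT3L TCM 2009 and 2030. The R788 libraries had 4298 and 4289 normalized counts, those of NB9464 TCM + R788 704 and 565, and those of NBT3L TCM + R788 917 and 774. The levels thus fell into the order NS, R788, NBT3L TCM, NB9464 TCM, NBT3L TCM + R788 and NB9464 TCM + R788, and in no neighboring pair did the libraries overlap. On the group means, Plau was 17.9-fold higher in NS than in NB9464 TCM + R788. By mean TPM, Plau was number 473 of 20143 genes above 0 in NS and number 6270 of 19297 in NB9464 TCM + R788.

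Plaur (ENSMUSG00000046223) lies on chromosome 7 at 24462484 to 24475968 on the + strand, again with no exon shared with another gene. Plaur had 7382 and 7450 normalized counts in NS, 8464 and 8786 in NB9464 TCM, and 10601 and 9717 in NBT3L TCM. The R788 libraries had 6777 and 6082 normalized counts of Plaur, those of NB9464 TCM + R788 4001 and 3488, and those of NBT3L TCM + R788 3809 and 3834. The receptor was highest in NBT3L TCM, followed by NB9464 TCM, NS and R788 without overlap, and lowest in the groups with TCM and R788, whose libraries overlapped. Its whole span on the group means was 2.71-fold.

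Serpinb2 (ENSMUSG00000062345) lies on chromosome 1 at 107511423 to 107535478 on the + strand, within a cluster of clade B serpins. Serpinb2 had 121 and 58.8 normalized counts in NS, 1505 and 1562 in NB9464 TCM, and 9650 and 10346 in NBT3L TCM. The R788 libraries had 92.7 and 60.7 normalized counts of Serpinb2, those of NB9464 TCM + R788 203 and 271, and those of NBT3L TCM + R788 1390 and 1505. The inhibitor was therefore highest in NBT3L TCM, and the ranges of NB9464 TCM and NBT3L TCM + R788 met at 1505. The libraries of NB9464 TCM + R788 stood above those of NS and R788, which overlapped. Its span was 130-fold on the group means, and by TPM it passed from number 10659 of 20143 genes in NS to number 640 of 19955 in NBT3L TCM.

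**Figure D1:**
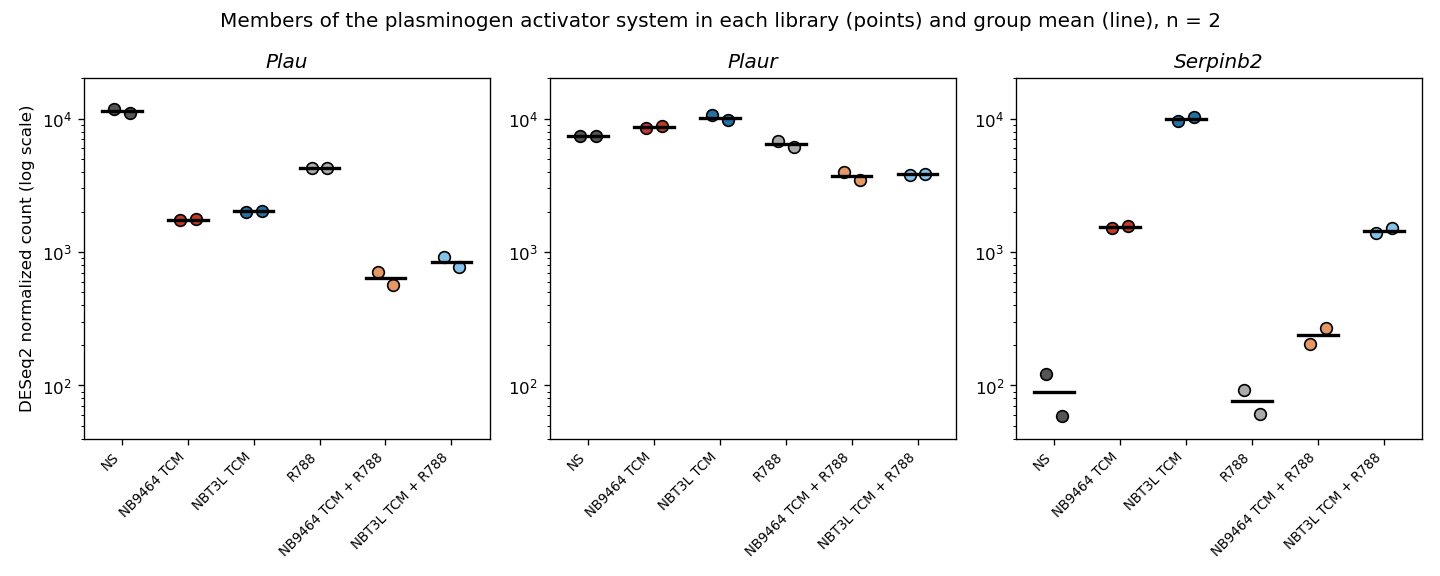
DESeq2 normalized counts (log axis) of Plau, Plaur and Serpinb2 in the 12 libraries (points) of the 6 groups, with the mean of each group of 2 as a line. Plau is highest in NS, at 11750 and 10982, and Serpinb2 is highest in NBT3L TCM, at 9650 and 10346, while Plaur spans 3488 to 10601.

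The first comparison asked how macrophages respond to medium of neuroblastoma cells. Both media lowered Plau and raised Serpinb2, and the receptor changed little by comparison. Plau was 11366 ± 543 normalized counts in NS (SD, n = 2). NB9464 TCM brought it to 1750 ± 7.10 and NBT3L TCM to 2019 ± 15.0. This was a fall of 6.50-fold in NB9464 TCM (log2 fold change -2.70, SE 0.0994, DESeq2 adjusted p = 4.29e-160) and of 5.63-fold in NBT3L TCM (log2 fold change -2.49, SE 0.0996, DESeq2 adjusted p = 4.05e-136). Among the 10715 genes whose mean reached 100 normalized counts, Plau was number 48 from the lowest fitted change in NB9464 TCM and number 63 in NBT3L TCM.

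Serpinb2, at 90.0 ± 44.1 normalized counts in NS, reached 1534 ± 40.9 with NB9464 TCM, a 17.0-fold rise (log2 fold change 4.09, SE 0.35, DESeq2 adjusted p = 1.43e-30). With NBT3L TCM it came to 9998 ± 492 normalized counts, 111-fold over NS (log2 fold change 6.80, SE 0.35, DESeq2 adjusted p = 1.43e-83), which placed it at number 21 from the highest fitted change of the 10715 genes. The size of these folds rested on the NS libraries, which differed from each other more than those of any other group. The log2 fold change in NB9464 TCM was 4.70 without the NS library SJ1 and 3.66 without SJ2, and in NBT3L TCM it was 7.41 and 6.36.

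Plaur was 7416 ± 48.1 normalized counts in NS. It was 8625 ± 227 with NB9464 TCM and 10159 ± 625 with NBT3L TCM. The rise was called by DESeq2 in NBT3L TCM (log2 fold change 0.45, SE 0.080, adjusted p = 1.06e-07) and, by a narrow margin, in NB9464 TCM (log2 fold change 0.22, SE 0.080, adjusted p = 0.0215), where edgeR did not call it (adjusted p = 0.0549). DESeq2 did not call the rise in NB9464 TCM without SJ1, SJ2 or SJ4 (adjusted p = 0.114, 0.0885 and 0.157). The rise also depended on the scale. Over 10709 genes, TPM moved the median by -0.25 in NB9464 TCM and -0.39 in NBT3L TCM on the log2 scale relative to normalized counts. On mean TPM, Plaur differed from NS by -0.037 in NB9464 TCM and 0.061 in NBT3L TCM on the log2 scale, with libraries at 183 and 179 TPM in NS, 177 and 175 TPM with NB9464 TCM, and 197 and 180 TPM with NBT3L TCM. Plau and Serpinb2 kept their directions on that scale, with log2 ratios of -2.95 and 3.83 in NB9464 TCM and -2.89 and 6.40 in NBT3L TCM.

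All 3 members were thus called in both media by DESeq2, at an adjusted p under 0.05, against 34.1% of all genes tested in NB9464 TCM and 35.3% in NBT3L TCM. The comparisons share the NS libraries. In bulk RNA, fewer cells of a type and less RNA per cell cannot be told apart. The osteoclast markers moved with Serpinb2 in the comparison with NS, from a summed 72.1 to 72.6 TPM in NS to 162 to 175 TPM in TCM without drug, with Calcr and Ocstamp at no more than 14 and 54 counts in any library. The markers of neutrophils and their precursors summed to 497 to 527 TPM in NS and 682 to 764 TPM in TCM without drug, where Ly6g reached at most 4 counts. The part of these lists in the result was not tested. The endothelial markers moved with Plau, from 10.4 to 11.2 TPM in NS to 1.16 to 3.18 TPM in TCM without drug. They consisted mostly of Kdr, while Tek stayed at 2 counts or fewer and Emcn at 6 or fewer in all libraries.

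Compared directly, the media differed more in the inhibitor than in the other members. Plau was lower in both NB9464 TCM libraries than in both of NBT3L TCM, and the difference did not pass the adjusted test. Plau in NB9464 TCM differed from NBT3L TCM by -0.21 on the log2 scale (95% interval -0.41 to -0.0070, DESeq2 adjusted p = 0.192). Serpinb2 was 6.52-fold lower in NB9464 TCM (log2 fold change -2.70, SE 0.33, DESeq2 adjusted p = 3.70e-14). Among the 10715 genes only 1 had a lower fitted change. Plaur was slightly lower in NB9464 TCM (log2 fold change -0.24, SE 0.080, DESeq2 adjusted p = 0.0295), which edgeR did not call (adjusted p = 0.120) and which DESeq2 did not call without SJ3, SJ4 or SJ5 (adjusted p = 0.256, 0.0836 and 0.395). With DESeq2, 2 of the 3 members were called, against 9.4% of all genes tested.

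R788 was then compared with no drug in each medium, to ask how the 3 genes moved with the drug. Plau was lower with R788 in all 3 settings by similar amounts. Plaur and Serpinb2 were lowered in TCM, and without TCM they moved little. Without TCM, Plau fell by 1.40 on the log2 scale, from 11366 ± 543 to 4293 ± 6.47 normalized counts (SE 0.098, DESeq2 adjusted p = 8.07e-45). In NB9464 TCM it fell by 1.46, to 635 ± 98.2 normalized counts (SE 0.11, DESeq2 adjusted p = 7.24e-40), and in NBT3L TCM by 1.26, to 845 ± 102 (SE 0.11, DESeq2 adjusted p = 1.36e-30). These were 2.65-fold, 2.75-fold and 2.39-fold differences. Without library SJ8 the fall without TCM was again 1.40 (DESeq2 adjusted p = 9.44e-33).

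Plaur fell by 1.20 in NB9464 TCM on the log2 scale, to 3744 ± 363 normalized counts (SE 0.081, DESeq2 adjusted p = 1.94e-47), and by 1.41 in NBT3L TCM, to 3822 ± 17.9 (SE 0.081, DESeq2 adjusted p = 3.14e-65). With R788 present, the receptor was thus about the same in both media, below every library of NS. Without TCM the difference was -0.21 (SE 0.080, DESeq2 adjusted p = 0.0368, edgeR adjusted p = 0.0668), with 6429 ± 491 normalized counts in R788. It was not called without library SJ8 (log2 fold change -0.13, DESeq2 adjusted p = 0.255), without either NS library (adjusted p = 0.113 and 0.158) or in a fit of these 4 libraries alone (-0.20, adjusted p = 0.128).

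Serpinb2 fell 6.48-fold with R788 in NB9464 TCM, to 237 ± 48.2 normalized counts (log2 fold change -2.70, SE 0.34, DESeq2 adjusted p = 1.11e-13), and 6.91-fold in NBT3L TCM, to 1448 ± 81.3 (log2 fold change -2.79, SE 0.33, DESeq2 adjusted p = 3.32e-15). It ranked number 25 and number 16 from the lowest fitted change of the 10715 genes. Without TCM, Serpinb2 was 76.7 ± 22.6 normalized counts with R788 and 90.0 ± 44.1 without, and no difference was called (log2 fold change -0.23, 95% interval -0.95 to 0.48, DESeq2 adjusted p = 0.705). That estimate turned with single libraries. It was -0.67 without the NS library SJ2, where it was called (DESeq2 adjusted p = 0.0144), 0.37 without SJ1 and 0.042 without SJ8.

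All 3 members were called, each lower, in both media with R788. Of all genes tested, 14.5% were called in NB9464 TCM and 12.6% in NBT3L TCM, with 8.7% and 7.24% called lower. Without TCM, 2 of the 3 were called by DESeq2, against 26.6% of genes called in either direction. The fibroblast markers were higher with R788 in every setting, at 8.72 to 11.4 TPM in NS and 19.9 to 24.2 TPM in R788. In NBT3L TCM they were 11.7 to 13.5 TPM without and 19.1 to 20.0 TPM with the drug. In NB9464 TCM they were 8.96 to 10.8 TPM without and 11.4 to 14.0 TPM with it. Col1a1 and Col1a2 made up most of that sum and Lum reached at most 76 counts. The endothelial markers were lower with R788 in every setting, at 5.66 to 7.77 TPM in R788 and 0.220 to 0.963 TPM in TCM with the drug. The neutrophil and precursor markers were lower with R788 in both media, as Plaur and Serpinb2 were, at 682 to 729 TPM without and 566 to 596 TPM with the drug in NB9464 TCM and at 752 to 764 and 569 to 581 TPM in NBT3L TCM, while NS and R788 overlapped (383 to 509 TPM in R788). The osteoclast markers were lower in R788 (46.5 to 56.7 TPM) than in NS, higher with R788 in NB9464 TCM (168 to 175 against 218 to 221 TPM), and overlapped in NBT3L TCM (162 to 167 against 165 to 174 TPM). The macrophage markers, mostly Lyz2, were 71124 to 76532 TPM in TCM without R788 and 83648 to 85655 TPM in NBT3L TCM + R788, with 83676 to 83712 TPM in NB9464 TCM + R788. The part of these lists in the result was not tested.

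The R788 effects in the 3 settings were next compared with each other. For Plau no dependence was called. Its R788 effect in NB9464 TCM differed from that without TCM by -0.056 on the log2 scale (95% interval -0.34 to 0.23, DESeq2 adjusted p = 0.865), and in NBT3L TCM by 0.15 (95% interval -0.13 to 0.43, DESeq2 adjusted p = 0.590). For Plaur the effect was stronger in both media, by -0.997 in NB9464 TCM (SE 0.11, DESeq2 adjusted p = 3.75e-16) and by -1.20 in NBT3L TCM (SE 0.11, DESeq2 adjusted p = 1.52e-23). For Serpinb2 it was stronger by -2.46 in NB9464 TCM (SE 0.50, DESeq2 adjusted p = 1.96e-05) and by -2.55 in NBT3L TCM (SE 0.49, DESeq2 adjusted p = 7.80e-06). Thus 2 of the 3 members were called in each of these contrasts, against 12.5% of genes tested for NB9464 TCM and 10.1% for NBT3L TCM. The size for Serpinb2 was between -3.07 and -2.02 in NB9464 TCM and between -3.16 and -2.11 in NBT3L TCM when single libraries were left out, with the extremes set by the NS libraries.

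The effect of R788 was not called different between NB9464 TCM and NBT3L TCM for any member. The differences on the log2 scale were -0.20 for Plau (95% interval -0.50 to 0.091, DESeq2 adjusted p = 0.879), 0.21 for Plaur (-0.018 to 0.43, adjusted p = 0.712) and 0.093 for Serpinb2 (-0.84 to 1.02, adjusted p = 0.997). Of all genes tested, 0.706% were called in that contrast.

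With R788 present throughout, TCM was set against the drug alone, and all 3 members were called in both media, against 40.4% of genes tested for NB9464 TCM and 41.4% for NBT3L TCM. Plau was lower by 2.76 in NB9464 TCM + R788 (SE 0.11, DESeq2 adjusted p = 1.02e-147) and by 2.35 in NBT3L TCM + R788 (SE 0.10, DESeq2 adjusted p = 1.09e-111). Plaur, higher in TCM than in NS without the drug on normalized counts, was lower in TCM than in R788 alone, by 0.78 (SE 0.081, DESeq2 adjusted p = 1.37e-20) and 0.75 (SE 0.081, DESeq2 adjusted p = 3.32e-19). Serpinb2 was higher, by 1.63 in NB9464 TCM + R788 (SE 0.35, DESeq2 adjusted p = 2.17e-05) and by 4.24 in NBT3L TCM + R788 (SE 0.35, DESeq2 adjusted p = 1.23e-32). These comparisons share the R788 libraries. Without SJ8 the values for Serpinb2 were 1.35 and 3.96, and all 6 calls held.

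The media were last compared with R788 present in both. Serpinb2 was 6.11-fold lower in NB9464 TCM + R788 than in NBT3L TCM + R788 (log2 fold change -2.61, SE 0.34, DESeq2 adjusted p = 1.32e-12), close to the 6.52-fold seen without the drug. Plau was lower by 0.41 (SE 0.11, DESeq2 adjusted p = 0.00374), which was not called in a fit of these 4 libraries alone (-0.39, adjusted p = 0.172), without library SJ10 (-0.26, adjusted p = 0.216) or without SJ11 (-0.28, adjusted p = 0.223). Plaur did not pass the test (log2 fold change -0.029, 95% interval -0.19 to 0.13, DESeq2 adjusted p = 0.923). Here 2 of 3 members were called, against 9.62% of genes tested.

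**Figure D2:**
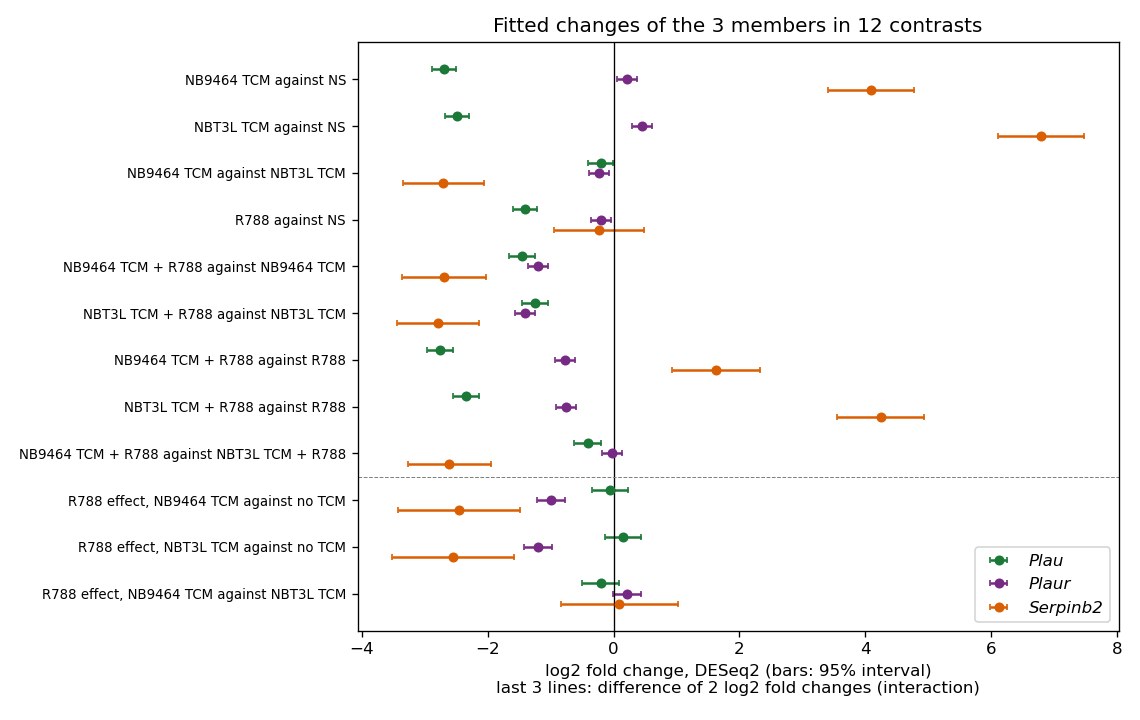
DESeq2 log2 fold changes of Plau, Plaur and Serpinb2 (points) with 95% intervals (bars) in 9 contrasts between groups and, under the dashed line, in 3 contrasts between R788 effects. The intervals of Plau include 0 in the 3 contrasts between R788 effects, and those of Plaur and Serpinb2 lie below 0 in the first 2 of them.

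Levels of the 3 genes can be set against each other only per length, as TPM. In NS, Plau was 306 ± 21.4 TPM, Plaur 181 ± 2.80 and Serpinb2 2.45 ± 1.25 (SD, n = 2). The ratio of Serpinb2 to Plau TPM was 0.0104 and 0.00539 in NS and 0.0217 and 0.0143 in R788. It was 0.869 and 0.897 in NB9464 TCM and 4.84 and 5.14 in NBT3L TCM. With R788 in TCM it came to 0.290 and 0.483 in NB9464 TCM + R788 and to 1.53 and 1.96 in NBT3L TCM + R788. With the deposited gene lengths, the inhibitor exceeded the activator in both groups with NBT3L TCM and in no other. R788 lowered the ratio within each TCM without overlap of the libraries. The length used for Serpinb2 was 2349 bases, whereas its coding transcripts have 1970 and 1996. A shorter length would raise the ratio, so the side of 1 on which NB9464 TCM lies depends on that choice. The ratio of Plau to Plaur TPM was 1.76 and 1.63 in NS, 0.701 and 0.780 in R788 and between 0.179 and 0.266 in the 8 libraries with TCM. In TCM it was 0.210 to 0.231 without R788 and 0.179 to 0.266 with it. In NB9464 TCM both libraries with R788 (0.195 and 0.179) lay below both without (0.228 and 0.221), and in NBT3L TCM the libraries overlapped.

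**Figure D3:**
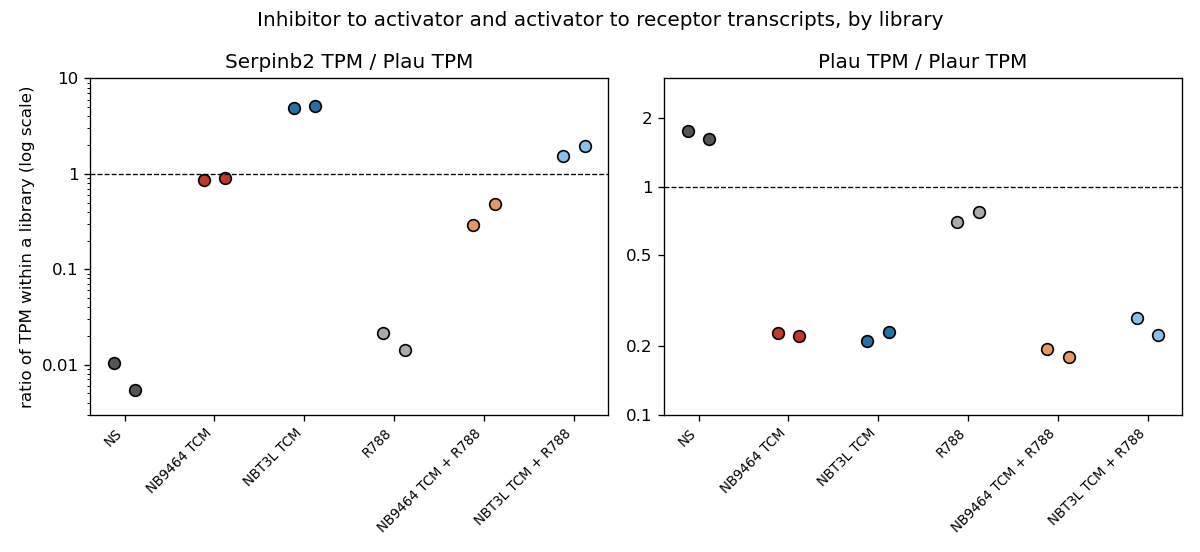
Ratio of Serpinb2 to Plau TPM (left) and of Plau to Plaur TPM (right) in each library, on log axes, with a dashed line at 1. With the deposited gene lengths, the inhibitor exceeds the activator only in NBT3L TCM (4.84 and 5.14) and NBT3L TCM + R788 (1.53 and 1.96). The activator exceeds its receptor only in NS (1.76 and 1.63).

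The count of Serpinb2 is less certain than those of the other members, since its exons share 291 bases (12.4% of its length in the table) with Serpinb10 on the same strand, a neighboring serpin annotated as a polymorphic pseudogene at 107529003 to 107549271. Of its 2345 sequence words of 31 bases, 11.2% occurred in another gene, in each case Serpinb10, against 0.466% for Plau and 0.187% for Plaur. Both coding transcripts of Serpinb2 end before Serpinb10 begins, at 107525598 and 107525592, and have 0 bases in its exons. The overlap came from 2 further Serpinb2 transcripts annotated as targets of nonsense-mediated decay.

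Serpinb10 moved against Serpinb2 in TCM, and with it for R788 in NB9464 TCM. Its raw counts were 166 and 224 in NS, 80 and 80 in NB9464 TCM, 27 and 47 in NBT3L TCM, 410 and 588 in R788, 46 and 20 in NB9464 TCM + R788, and 44 and 34 in NBT3L TCM + R788. Those of Serpinb2 were 129 and 62 in NS and 102 and 76 in R788, below Serpinb10 in these 4 libraries and above it in the 8 with TCM. Serpinb10 fell in both media (log2 fold change -1.29 in NB9464 TCM, DESeq2 adjusted p = 0.00502, and -2.12 in NBT3L TCM, adjusted p = 2.45e-06) and rose with R788 alone (1.19, adjusted p = 0.00919). With R788 in NB9464 TCM it was lower, as Serpinb2 was (-1.14, DESeq2 adjusted p = 0.0456, edgeR adjusted p = 0.0652), and in NBT3L TCM it was not called (-0.068, DESeq2 adjusted p = 0.956). Adding its counts to those of Serpinb2 lowered the log2 fold change of TCM against NS to 2.55 and 5.19, and turned that of R788 against NS to 0.86 (adjusted p = 2.99e-11). The value of NB9464 TCM + R788 against R788 turned from 1.63 to -0.88 (adjusted p = 9.23e-12), and that of NBT3L TCM + R788 against R788 was 1.58. All counts of Serpinb10 were added, although 8.34% of its length is shared with Serpinb2. The sum therefore does not estimate how many reads were counted for the wrong gene. The falls with R788 within TCM kept their calls.

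**Figure D4:**
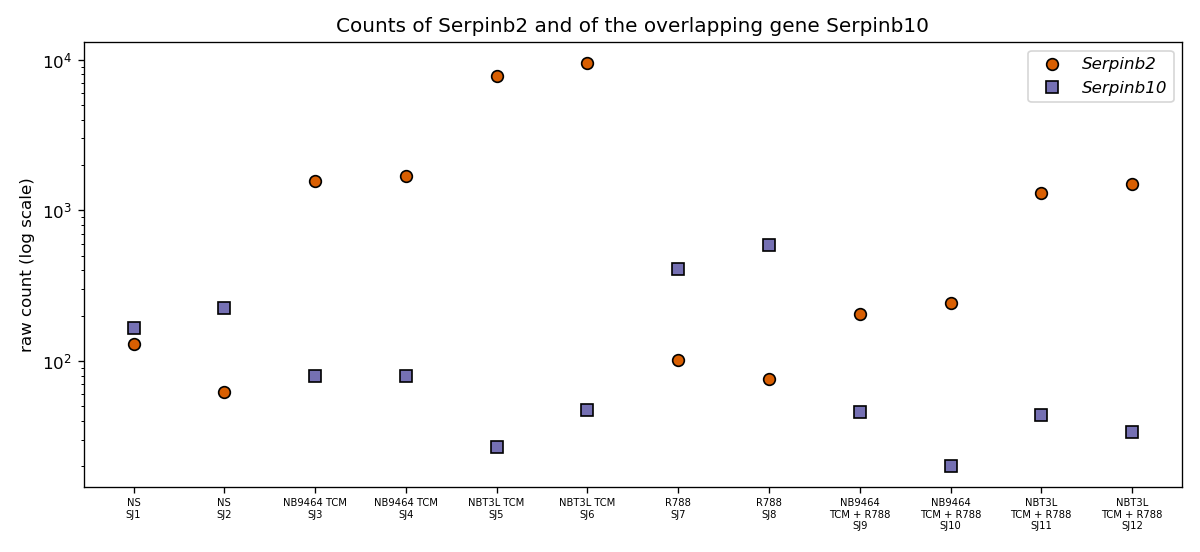
Raw counts (log axis) of Serpinb2 and of Serpinb10, whose exons overlap, in each of the 12 libraries. Serpinb10 lies above Serpinb2 in the 4 libraries of NS and R788, reaching 588, and below it in the 8 libraries with TCM.

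The substrate and the other activator were absent or scarce. Plg, which encodes plasminogen, had 0 counts in all 12 libraries, where the limit set by 3 counts is between 0.0531 and 0.0667 CPM. Plat, the tissue-type activator, had 0 to 36 counts and was not called in TCM or R788 alone against NS, while DESeq2 set no adjusted p for R788 within TCM. Against R788 alone, with 2 and 0 counts, it was called higher by DESeq2 in NB9464 TCM + R788 (12 and 16 counts, adjusted p = 0.0189, edgeR 0.0518) and in NBT3L TCM + R788 (12 and 20 counts, adjusted p = 0.0134, edgeR 0.0432). Of the 7 genes listed as plasminogen, other activators and activating proteases, 3 were tested. Hpn, a membrane serine protease, had 107 to 147 normalized counts in NS, 811 to 875 with NB9464 TCM and 828 to 875 with NBT3L TCM, a rise of 2.73 and 2.74 on the log2 scale (DESeq2 adjusted p = 6.26e-45 and 3.82e-45), and rose by 1.57 with R788 alone. St14, which encodes matriptase, fell with R788 in both media, by 0.81 (adjusted p = 0.0118) and 0.79 (adjusted p = 0.0210).

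Among 11 inhibitors of activators and of plasmin, 7 were tested. Serpine2, protease nexin 1, rose by 2.47 in NB9464 TCM and 1.13 in NBT3L TCM (DESeq2 adjusted p = 1.56e-21 and 6.55e-05). Serpini1, which encodes neuroserpin, rose likewise, by 2.80 and 1.09 (adjusted p = 4.45e-17 and 0.00381), from 52.6 to 62.6 normalized counts in NS. Serpinb6a, an intracellular serpin, fell by 1.46 and 1.26 from 24280 and 25742 normalized counts in NS (adjusted p = 3.41e-121 and 8.04e-90).

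All 10 clearance receptors of activator and inhibitor complexes were tested, and in each TCM 4 were called higher and 2 lower against NS, where 17.2% and 16.9% of all genes were in NB9464 TCM and 18% and 17.3% in NBT3L TCM. Lrp1, the endocytic receptor that takes up urokinase bound to its inhibitor, fell by 0.74 and 0.73 (DESeq2 adjusted p = 5.46e-24 and 3.22e-23), from 86349 and 91057 normalized counts in NS. Sort1 (sortilin) rose by 1.21 and 1.23 in the media and by 1.13 with R788 alone, and M6pr, a mannose 6-phosphate receptor, by 0.75 and 1.05 in the media. Lrp8 was higher by 0.36 and 0.33 in TCM (DESeq2 adjusted p = 0.00754 and 0.0152), which in NBT3L TCM is less than the shift that TPM brings, and fell with R788 in NB9464 TCM by 1.19 (adjusted p = 3.78e-21) and in NBT3L TCM by 0.74 (adjusted p = 2.13e-08).

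Of 11 listed plasminogen receptors, 10 were in the table and tested. In NB9464 TCM, 4 rose and 5 fell (17.2% and 16.9% of all genes), and in NBT3L TCM 3 rose and 4 fell (18% and 17.3% of all genes). S100a10, the plasminogen-binding partner of annexin A2, fell in each comparison, by 0.92 and 0.91 in the media, 0.63 with R788 alone, and 0.47 and 0.53 with R788 in TCM (DESeq2 adjusted p between 7.90e-08 and 0.0243). Hmgb1 fell by 1.09 and 0.98 in the media. Plgrkt, a transmembrane plasminogen receptor, had 2089 to 2750 normalized counts over all libraries and was called only with R788 alone (0.27, adjusted p = 0.0186).

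Among 17 ligands and membrane partners of the urokinase receptor, 15 were tested. Fpr1 and Fpr2 are chemotactic receptors that respond to fragments of the urokinase receptor. Fpr1 had 1412 and 1606 normalized counts in NS and 27200 to 28254 in TCM without drug (log2 fold change 4.22 and 4.18), and Fpr2 rose by 3.60 and 3.53. With R788 in TCM, Fpr1 was not called (0.16 and -0.09, DESeq2 adjusted p = 0.140 and 0.515) and Fpr2 was 0.25 higher in NB9464 TCM (DESeq2 adjusted p = 0.000788). Ly6a, a related protein with the same lipid anchor, followed the direction of Plau in all 5 comparisons and fell by 2.89 and 2.69 in the media, 1.52 with R788 alone, and 1.01 and 1.12 with R788 in TCM (DESeq2 adjusted p between 1.22e-139 and 4.81e-16).

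Clotting factors and cofactors of macrophages numbered 11 in the list and 9 tested. F10 and F7, which encode clotting factors X and VII, rose by 2.99 and 3.16 and by 1.50 and 1.64 in the media, and also with R788 alone, by 1.58 and 0.91. Procr, the endothelial protein C receptor, rose by 3.16 and 3.69 in the media and fell with R788 in all settings, by 0.56, 0.52 and 0.62. F13a1, which encodes the enzyme that cross-links fibrin, fell by 0.56 in NB9464 TCM and by 1.91 in NBT3L TCM. Of 15 substrates of plasmin or urokinase, 12 were tested. Chosen after their values were seen, Mmp12 and Mmp13, a macrophage elastase and a collagenase, fell with R788 in every setting. In NB9464 TCM, in NBT3L TCM and without TCM, the log2 fold changes were -2.79, -2.81 and -2.01 for Mmp12 and -2.66, -2.97 and -1.75 for Mmp13 (DESeq2 adjusted p between 6.55e-238 and 2.06e-18). Thbs1 (thrombospondin 1) rose by 2.60 and 3.69 and Mmp14, a membrane-bound matrix metalloproteinase, by 3.48 and 4.11 in the media. Both also rose with R788 alone, by 1.57 and 0.95, and neither was called with R788 in TCM (DESeq2 adjusted p between 0.160 and 0.907). Mmp3 had 0 counts in NS and R788 and at most 51.9 normalized counts in TCM, and Lama5 at most 80.6.

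**Figure D5:**
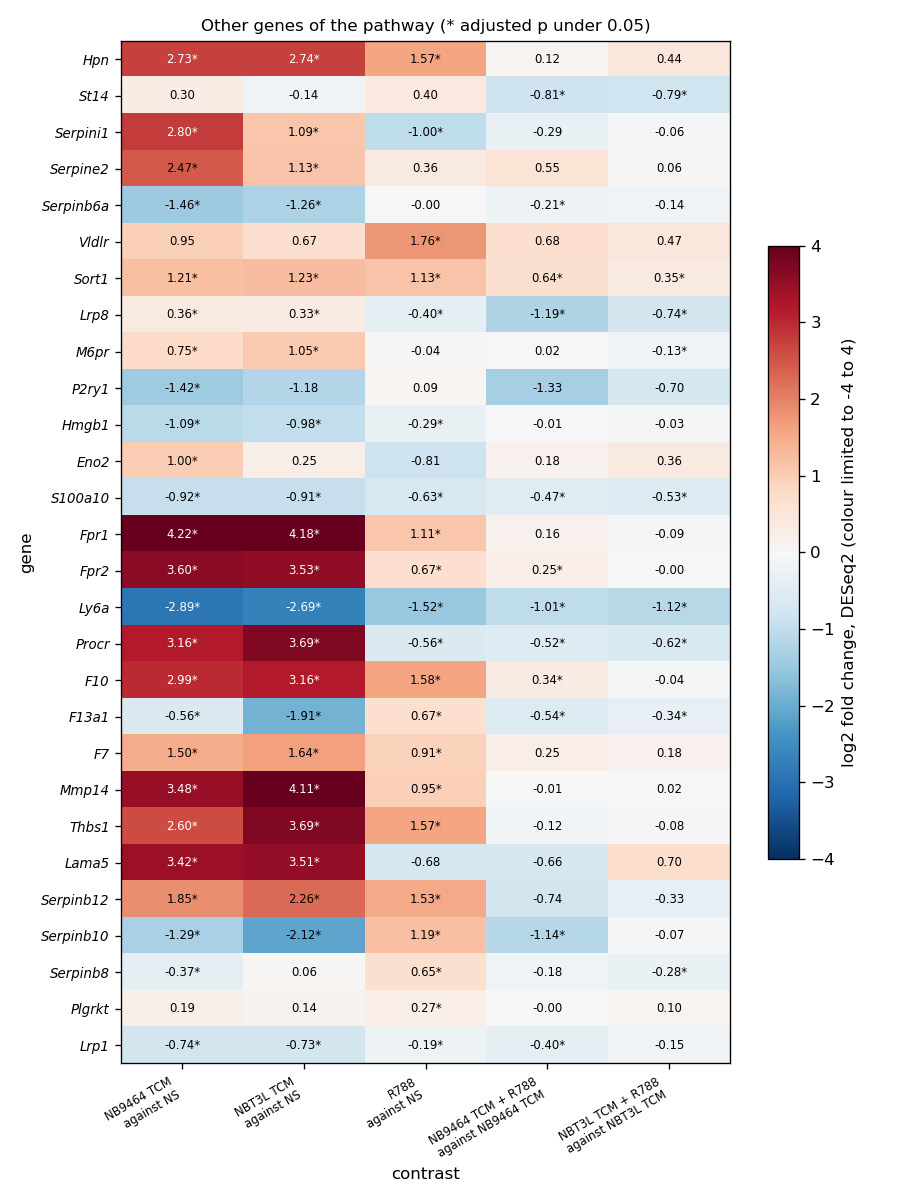
DESeq2 log2 fold changes of other pathway genes (lines) in 5 contrasts (columns), red for higher and blue for lower, with an asterisk at an adjusted p under 0.05. Genes with 3 normalized counts or fewer in both libraries of a group are among those left out. Fpr1 reaches 4.22 in NB9464 TCM against NS, and Lrp8 is higher in both TCM columns and lower in the 3 R788 columns. Mmp12 and Mmp13 are not plotted.

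Over the 7 lists together, 66 of 82 listed genes were tested. In NB9464 TCM 28 of the 66 were higher and 20 lower at an adjusted p under 0.05, against 17.2% and 16.9% of all genes tested, with a median log2 fold change of 0.26 against 0.021 over all genes. In NBT3L TCM the numbers were 27 and 15, against 18% and 17.3%, with a median of 0.28 (0.26 with genes at 3 counts or fewer set to that floor) against 0. These medians are close in size to, or smaller than, the shifts of -0.25 and -0.39 that TPM brings over 10709 genes in the same comparisons. With R788 alone, 15 were called higher and 21 lower (median -0.14, or -0.15 with genes at that floor), against 11.6% and 15% of all genes. With R788 in NB9464 TCM the numbers were 7 and 20 (median -0.17), against 5.79% and 8.7%, and in NBT3L TCM 4 and 20 (median -0.14), against 5.33% and 7.24%. Pathway genes called with R788 in TCM were more often lower than higher, as were genes overall. The lists were chosen with results of these data known, and their counts are descriptions.

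Of the 8 neighboring serpins on chromosome 1, Serpinb10 included, 4 were tested. Serpinb12 rose in both media (DESeq2 adjusted p = 0.000517 and 1.17e-05), from 16.9 and 40.8 normalized counts in NS to 100 to 107 with NB9464 TCM and 136 to 140 with NBT3L TCM. Serpinb8 had 2243 to 5321 normalized counts and was not called in NBT3L TCM (0.06, adjusted p = 0.677), where its neighbor Serpinb2 was highest. It rose with R788 alone (0.65, adjusted p = 5.85e-14).

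A list of 17 regulators held transcription factors known to act on these genes and Zfp36, an mRNA-binding protein that promotes decay, and all were tested. In NB9464 TCM, 9 were called higher and 4 lower, against 17.2% and 16.9% of all genes tested, and in NBT3L TCM 9 and 3, against 18% and 17.3%. With R788 alone 2 were called higher and 8 lower, against 11.6% and 15%, with Zfp36 among the lower (-0.90, DESeq2 adjusted p = 1.18e-24). With R788 in NB9464 TCM 2 were called higher and 5 lower, against 5.79% and 8.7%. In NBT3L TCM the numbers with R788 were 1 and 4, against 5.33% and 7.24%. Fosl1, an AP-1 subunit, had 146 and 207 normalized counts in NS, 559 and 560 with NB9464 TCM, 606 and 646 with NBT3L TCM, and 46.3 and 71.8 with R788 alone. It rose by 1.67 and 1.83 in the media and fell with R788 in every setting, by 2.18 in NBT3L TCM, 1.45 in NB9464 TCM and 1.58 without TCM (DESeq2 adjusted p between 8.82e-15 and 5.66e-07). With R788 in NBT3L TCM, Fosl2 had a log2 fold change of -0.37 (DESeq2 adjusted p = 1.11e-06). Fos, Jun, Junb and Jund were not called there (DESeq2 adjusted p between 0.272 and 0.755), and Fosb had no adjusted p. With R788 alone, DESeq2 called Fos (-1.23), Jun (-0.23) and Junb (-0.28) lower. In NB9464 TCM and NBT3L TCM against NS it called Fos lower (-0.78 and -0.66), Jun lower (-0.22 and -0.28) and Junb higher (0.19 and 0.48). Jund was not called in these comparisons. Egr1, an immediate early factor, rose by 0.99 and 1.01 in the media and had log2 fold changes of -3.03, -1.67 and -1.69 with R788 (DESeq2 adjusted p between 4.06e-12 and 4.85e-05). Against NS, Ets1 fell by 1.58 with R788 alone and by 0.66 with NB9464 TCM without the drug. With R788 in NBT3L TCM it was not called (-0.22, DESeq2 adjusted p = 0.494). Hif1a rose by 0.86 and 1.41 in the media and was not called with R788 in any setting (adjusted p between 0.503 and 0.698). No test linked these changes to the promoter letters shown above.

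The genes whose pattern over the 12 libraries was most like each member were found by Pearson correlation of log2(normalized count + 1) among 10709 genes, as a description without a test. The libraries share their treatments, so that many genes follow the same steps. For Plau they included Anxa1 (r = 0.994), Msmo1 (0.990), Ccnd1 (0.989) and Endod1 (0.989). For Plaur they were Ccl9 (0.948), Psd4 (0.945), Iffo2 (0.939), Gbp7 (0.934) and Cd300lf (0.928). For Serpinb2 they were Ggta1 (0.993), Kctd12 (0.989), Nrp2 (0.975), Med23 (0.974) and Car13 (0.974). The members were less like each other, with r = 0.581 between Plau and Plaur, -0.459 between Plau and Serpinb2 and 0.325 between Plaur and Serpinb2.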

How the data were processed

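The file deposited by the authors gives counts of reads for 54232 Ensembl genes in 12 libraries of poly(A)-selected BMDM RNA, in whole numbers and not scaled by length or depth. Per the labels and the submitters' processing notes, reads were aligned to mm10 with STAR 2.6.1d and Salmon 1.4.0 is named. The table has the layout of featureCounts, and the counting program, its use of strand and its handling of reads with several matches are not given in the sources used here. Labels give paired reads and duplicate libraries, the methods single reads and triplicates. Among counts from 1 to 40, 65.2% to 67.9% were even, a pattern that arises when both mates are counted.

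The members were chosen by symbol, and the members and lists were chosen with earlier results of these data known. Symbols and positions came from GENCODE M21 (GRCm38), which held 54165 of the IDs. Genes that reached 10 counts in 2 or more libraries entered a single DESeq2 1.42.0 fit (R 4.3.3) of 6 groups over 12 libraries, the tool of the study, with median-of-ratios size factors, two-sided Wald tests, unshrunken log2 fold changes and Benjamini-Hochberg adjustment. A gene was called at an adjusted p under 0.05, and 95% intervals are 1.96 SE. TPM was computed from the counts and the lengths in the table. Total counts of 44977847 to 56449685 set the precision, and floors of 3 counts cover counting error only. From each list, up to 4 tested genes with the largest called change were named, and Plat, Plgrkt, Lrp1 and Serpinb10 in any case. Some genes that the rules for naming would include are not reported here. The fit was checked on simulated counts.

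Alternatives were edgeR 4.0.16 (quasi-likelihood with TMM), DESeq2 with TMM factors, all genes with a count, only genes averaging 50 counts or more, halved counts, a fit of only the libraries compared, Serpinb10 counts added to Serpinb2 and leaving out each library. The same counts of pathway genes by edgeR, and without SJ8, were chosen after seeing the data and changed none by over 1.5 times. Promoters came from RefSeq (GRCm38.p6), with entries for 2 of 3 members.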

Additional observations from a re-analysis of the deposited data

Results flagged for a closer look

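For Plaur and Serpinb2, the effect of R788 in each TCM differed from that without TCM in the interaction test of DESeq2. It was not called different between NB9464 TCM and NBT3L TCM. The log2 effect on Plaur was -1.20 in NB9464 TCM against -0.21 without TCM, a difference of -0.997 (adjusted p = 3.75e-16), and -1.41 in NBT3L TCM, a difference of -1.20 (adjusted p = 1.52e-23). The log2 effect on Serpinb2 was -2.70 in NB9464 TCM against -0.23 without TCM, a difference of -2.46 (adjusted p = 1.96e-05), and -2.79 in NBT3L TCM, a difference of -2.55 (adjusted p = 7.80e-06). All 4 differences were also called by edgeR (adjusted p between 5.66e-06 and 0.000186). The Serpinb2 level without TCM rested on 62 to 129 counts. In the same libraries Serpinb10, whose exons overlap those of Serpinb2, had 166 to 588 counts. With its counts added, the effect without TCM was 0.86. Over all alternatives, the differences for Serpinb2 reached -3.44 in NB9464 TCM and -3.62 in NBT3L TCM.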

How the results depend on the processing

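No paired analysis was possible because the labels number the libraries 1 to 12 and no number is shared between groups. Over all alternatives and contrasts, 128 of 132 results for Plau, 117 of 132 for Plaur and 138 of 144 for Serpinb2 kept direction and call. With edgeR, Plaur was not called in NB9464 TCM against NS (0.21, adjusted p = 0.0549), NB9464 TCM against NBT3L TCM (-0.22, 0.120; with TMM scaling in DESeq2 -0.22, 0.0529) or R788 against NS (-0.21, 0.0668). With only the libraries compared, R788 against NS gave -0.20 for Plaur and the media with R788 gave -0.39 for Plau (adjusted p = 0.172). With Serpinb10 added, Serpinb2 turned to 0.86 in R788 against NS and to -0.88 in NB9464 TCM + R788 against R788. In these contrasts Serpinb10 by itself had log2 fold changes of 1.19 and -3.62, and Serpinb2 by itself -0.23 and 1.63.

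Leaving out each library gave 0.19 to 0.24 for Plaur in NB9464 TCM against NS, -0.30 to -0.17 in NB9464 TCM against NBT3L TCM, -0.28 to -0.13 in R788 against NS (each of these 3 lost its call in 3 of 4 settings) and -0.13 to 0.065 between the media with R788. It gave -0.58 to -0.26 for Plau between the media with R788 and -0.23 to 0.088 for the R788 effect in NB9464 TCM against no TCM. For Serpinb2 it gave -0.67 to 0.37 in R788 against NS and -0.13 to 0.29 for the R788 effect between media. The cause of these changes was not tested, apart from the lower number of libraries.

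Numbers of genes called fell when a library was left out, to 795 to 1065 of 1531 in NB9464 TCM against NBT3L TCM, 1432 to 1802 of 2359 for R788 in NB9464 TCM, 1173 to 1262 of 2046 for R788 in NBT3L TCM and 852 to 995 of 1567 between the media with R788. They were 1344 to 2974 around 2032 and 1038 to 2583 around 1649 for the interactions with no TCM, and 46 to 76 of 115 for that between media, which edgeR put at 21 and the fit of only those libraries at 272. Depth limits Serpinb2 in NS and R788 (62 to 129 counts) and Plat (0 to 36 counts).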
